A study of Mus musculus with 2 samples.

Results

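The mitochondrial genome of the mouse encodes subunits of the respiratory chain, and transcripts of 10 of these genes were followed here in single-nucleus RNA sequencing of brown adipose tissue. They were mt-Nd1, mt-Nd2, mt-Nd3, mt-Nd4, mt-Nd5, mt-Cytb, mt-Co1, mt-Co2, mt-Co3 and mt-Atp6, taken by name from the 31053 genes of the count tables. They are 10 of the 13 genes with the mt- prefix, the other 3 being mt-Nd4l, mt-Nd6 and mt-Atp8. Each gene was described by its share among all mt- UMIs (molecular identifiers, which count each captured molecule once). Shares were taken per library, per band of the mt- percent of a barcode (under 5%, 5 to 20% and at least 20%) and per cell class. Adipocyte nuclei were barcodes with at least 4 UMIs over Pparg, Acsl1, Pde3b and Ppara.

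The study set a library labelled 1cyc, whose mice had met acute cold for a short time 4 days before sampling, against a library labelled TN, from mice kept at thermoneutrality, where the body needs no extra heat production. All mice were C57BL/6, an inbred laboratory strain, with no further genotype or drug given in the labels. Each library pooled nuclei of 5 mice, which were sorted for DAPI (a DNA stain) and captured as poly(A) RNA on the 10X Genomics droplet platform. Age and sex of the mice are not stated there. With 1 pooled library per condition there was no replicate check and no test: an effect of the condition and one of the library preparation cannot be told apart. Intervals in parentheses are 95% and cover counting error only, and leave out any spread between mice or preparations.

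The circular mitochondrial genome is transcribed as long precursors from both strands. These are cut mostly at the tRNA genes between the coding genes, and most of the mRNAs are given short poly(A) tails. The mt-Nd genes encode subunits of complex I (NADH dehydrogenase), mt-Cytb a subunit of complex III, the mt-Co genes the catalytic core of complex IV (cytochrome c oxidase) and mt-Atp6 a subunit of complex V (ATP synthase). In brown adipocytes this chain pumps the protons whose return through uncoupling protein Ucp1 gives heat. These transcripts are made and kept inside mitochondria, so a preparation of nuclei holds them only with mitochondria or mitochondrial RNA that came along.

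The 3′ ends of 5 coding sequences are shown because these genes neighbour each other on the genome and differed in share between barcodes. The libraries were captured as poly(A) RNA, but where on each transcript the capture took place was not measured. An end of a coding sequence need not be the end of a transcript. Sequences are from GENCODE M21 transcripts on mm10, 5′ to 3′, each being the final 30 bases, with the stop codon or the part of it that the gene encodes in capitals.
mt-Nd4 (chrM:10167-11544, plus strand): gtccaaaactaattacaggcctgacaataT
mt-Nd5 (chrM:11742-13565, plus strand): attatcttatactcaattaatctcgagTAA
mt-Cytb (chrM:14145-15288, plus strand): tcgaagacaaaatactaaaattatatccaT
mt-Nd4l (chrM:9877-10173, plus strand): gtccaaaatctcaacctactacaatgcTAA
mt-Nd6 (chrM:13552-14070, minus strand): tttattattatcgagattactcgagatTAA
The genes mt-Nd4 and mt-Cytb, and also mt-Co3, encode only the first T of their stop codon, which the poly(A) tail completes. The coordinates show that mt-Nd4l overlaps the start of mt-Nd4, and that mt-Nd6 on the minus strand overlaps the end of mt-Nd5. On the plus strand mt-Atp8 (7766 to 7969) also overlaps the start of mt-Atp6 (7927 to 8607). UMIs in the same-strand overlaps, of mt-Nd4l with mt-Nd4 and of mt-Atp8 with mt-Atp6, can be split uncertainly between the genes. The overlap of mt-Nd5 and mt-Nd6 is between opposite strands.

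In depth, 2469900 UMIs fell on 4321 barcodes of 1cyc (median 378 per barcode) and 2745808 UMIs on 2551 barcodes of TN (median 800). The lowest barcode held 262 UMIs in 1cyc and 500 in TN, so the lower limit of the deposited barcodes differed. Only 6 barcode sequences occurred in both libraries. The rule found 2549 adipocyte nuclei in 1cyc (59.0% of barcodes) and 1897 in TN (74.4%). The 4 rule genes fix this class, so it was checked on the thermogenesis list, which shares no gene with the rule. That list summed to 8032 CPM (counts scaled to a total of 1e+06) of nuclear-encoded UMIs in adipocyte nuclei of 1cyc and 6386 CPM in those of TN. In the endothelial gate it gave 1120 CPM in 1cyc and 712 CPM in TN. The skeletal muscle gate had more, with 2039 CPM in 1cyc and 2762 CPM in TN. In 1cyc the 602 barcodes that passed neither the rule nor a gate had 6625 CPM, and the 1029 haemoglobin-gate barcodes 5490 CPM. The 187 barcodes of TN that passed neither had 3116 CPM. Other barcodes of both libraries thus carried these transcripts too, more so in 1cyc. The list of abundant adipocyte mRNAs, which holds the lipid handling genes Fabp4, Cd36 and Lpl, summed to 7091 CPM in 1cyc and 6915 CPM in TN adipocyte nuclei. It did not set them apart from the endothelial gates, with 11606 CPM in 1cyc and 13440 CPM in TN, nor from ungated 1cyc barcodes (7104 CPM). Sums were lower in the fibroblast or progenitor (1010 and 851 CPM), macrophage (2211 and 762), skeletal muscle (1266 and 2071) and mural gates (1536 and 1304) of 1cyc and TN. Just under the limit, 631 barcodes in 1cyc and 175 in TN held 3 UMIs of the 4 rule genes, and 566 and 130 held 4.

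Mitochondrially encoded UMIs were far more abundant in the 1cyc library. They made up 350772 UMIs in 1cyc (14.2% of the library) and 157587 in TN (5.74%), a ratio of 2.47. The median barcode had 22.1% mt- UMIs in 1cyc (quartiles 4.97% and 33.0%) and 4.76% in TN (quartiles 2.72% and 7.93%). In 1cyc 1084 barcodes lay under 5%, 962 between 5 and 20%, and 2275 at 20% or more. In TN the same bands held 1340, 1127 and 84 barcodes. The distribution in 1cyc had a second hump between about 25 and 42%, which TN did not show. The size of the ratio depended on which barcodes were kept: with at least 500 UMIs in both libraries, 1457 of 4321 1cyc barcodes (33.7%) and all 2551 TN barcodes remained, and the ratio was 1.28. In that setting the median barcode had 3.27% mt- UMIs in 1cyc and 4.76% in TN.

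**Figure D1:**
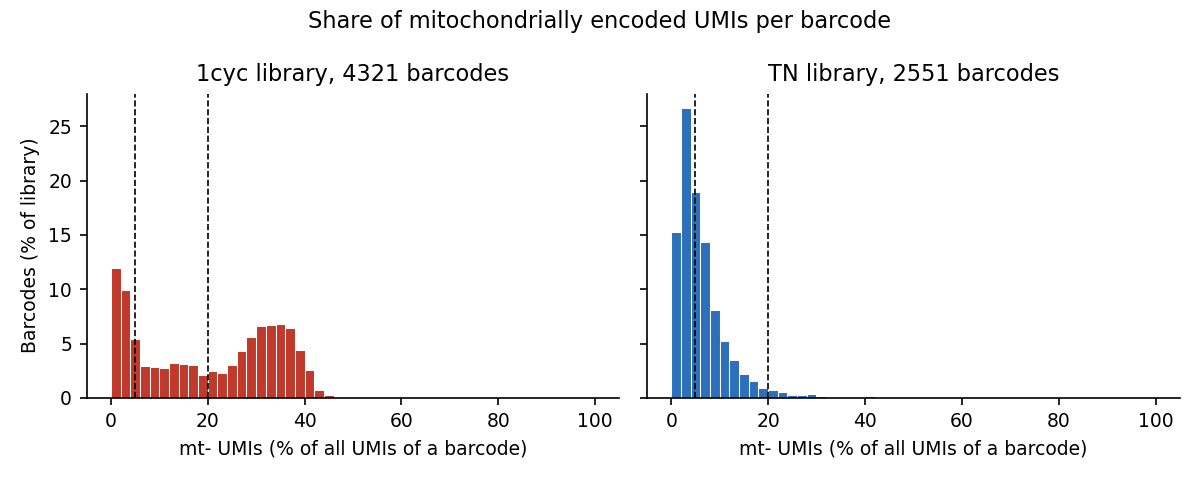
Percent of barcodes (y axis) in bins of 2 points of the mt- percent (x axis) in the 1cyc library (left, red) and the TN library (right, blue), with dashed lines at the band limits of 5% and 20%. The 1cyc library had 2275 of 4321 barcodes at 20% or more, against 84 of 2551 in TN.

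In both libraries the 3 mt-Co genes and mt-Cytb dominated. The mt-Co1 transcript took 23.8% of mt- UMIs in 1cyc (23.6 to 23.9) and 24.2% in TN (24.0 to 24.4), the highest share of any gene. By share it was followed by mt-Co3 with 16.1% in 1cyc and 15.2% in TN, and by mt-Cytb with 15.7% and 13.5%. UMIs count captured molecules, so these shares rank the genes by captured molecules. Share per kilobase of coding sequence is given as a second scale, which lowers long genes. On that scale mt-Co3 came first with 20.5 points per kb in 1cyc and 19.4 in TN, followed by mt-Co2 with 18.5 and 17.0. Then came mt-Atp6 and mt-Co1, which changed places between the libraries: mt-Atp6 had 16.9 points per kb in 1cyc and 15.5 in TN, and mt-Co1 15.4 and 15.7. The mt-Cytb transcript followed with 13.7 points per kb in 1cyc and 11.8 in TN. The complex I genes lay below all of these: mt-Nd4 had 5.63 and 7.67 points per kb, mt-Nd1 4.81 and 4.96, mt-Nd2 4.75 and 4.94, and mt-Nd3 3.14 and 2.72. Within this group mt-Nd1 and mt-Nd2 were the closest neighbours. The mt-Nd5 transcript, the longest of the 10 coding sequences at 1824 bases, was lowest on this scale with 0.511 points per kb in 1cyc and 1.07 in TN. By share without division by length, mt-Nd5 lay below mt-Nd3 in 1cyc (0.932% and 1.09%) but above it in TN (1.94% and 0.946%).

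Among the 10 members, complex I genes were the ones that differed by 1.2-fold or more between the libraries when all barcodes were summed. The mt-Nd5 transcript, which encodes a proton-pumping subunit of the membrane arm, took 0.932% of mt- UMIs in 1cyc (0.900 to 0.964) and 1.94% in TN (1.88 to 2.01), a ratio of 0.479 (0.456 to 0.504). The mt-Nd4 transcript, for a neighbouring subunit of the same arm, took 7.75% in 1cyc (7.66 to 7.84) and 10.6% in TN (10.4 to 10.7), a ratio of 0.733 (0.719 to 0.747). These 2 were the members at least 1.2-fold lower, and 0 of 10 were at least 1.2-fold higher. The mt-Cytb transcript took 15.7% in 1cyc and 13.5% in TN, a ratio of 1.16 (1.14 to 1.18), and mt-Nd3 1.09% and 0.946%, also a ratio of 1.16 (1.09 to 1.23). The mt-Co2, mt-Atp6 and mt-Co3 shares were higher in 1cyc by 1.09-fold, 1.09-fold and 1.06-fold. The mt-Co1, mt-Nd1 and mt-Nd2 shares stood at ratios of 0.982, 0.968 and 0.963. All 10 counting intervals left out a ratio of 1, 5 above it and 5 below it. Shares sum to 100%, so a lower share of some genes goes with a higher share of others.

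**Figure D2:**
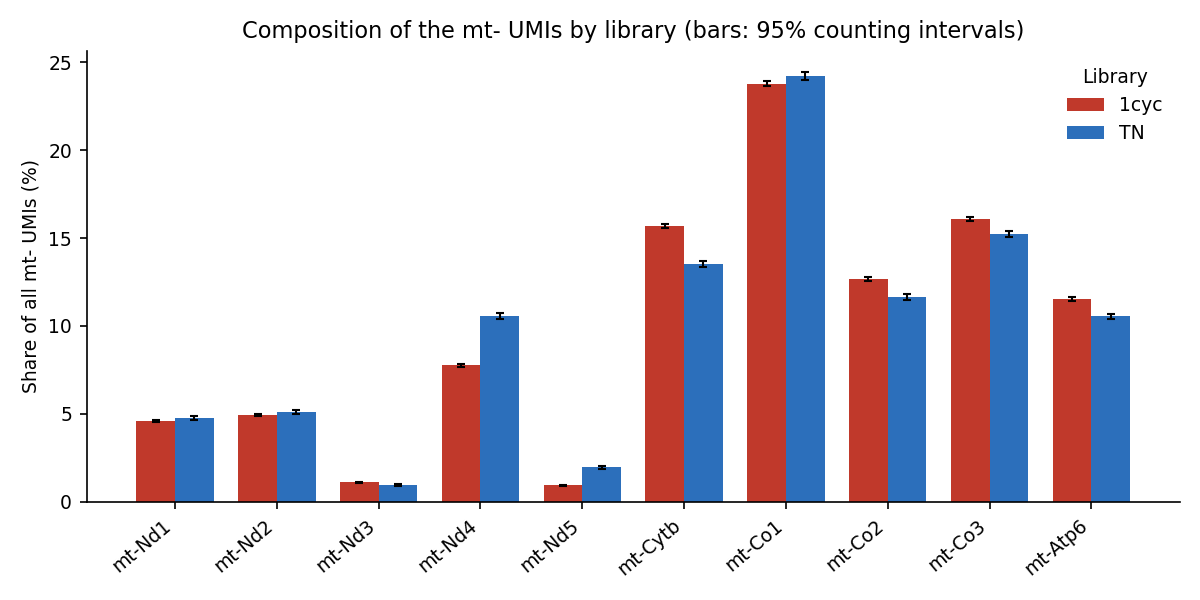
Share of all mt- UMIs in percent (y axis) for the 10 genes (x axis) in the 1cyc library (red, left bar) and the TN library (blue, right bar), over all barcodes, with 95% counting intervals. The gap is widest for mt-Nd4, with 7.75% in 1cyc and 10.6% in TN, and relative to its level for mt-Nd5, with 0.932% and 1.94%.

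Added up by complex, the complex I genes (mt-Nd4l and mt-Nd6 included) held 20.2% of mt- UMIs in 1cyc and 24.7% in TN. Complex III held 15.7% in 1cyc and 13.5% in TN, complex IV 52.5% and 51.1%, and complex V 11.6% and 10.7%. The whole composition differed by 5.16 percentage points (4.86 to 5.45) between the libraries, a distance that is the summed difference of all 13 shares counted in 1 direction. This distance is never below 0, also between samples of the same composition. Its interval treats the genes with the higher share as fixed, although they were picked from the same counts. Distances and their intervals thus lie too high, most so for small differences or few UMIs, and a lower bound above 0 is no test.

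The difference between libraries went with the mt- percent of the barcodes. Under 5% mt- UMIs, mt-Nd4 took 10.4% in 1cyc and 10.4% in TN (ratio 1.00, 0.951 to 1.05), and mt-Nd5 1.86% in 1cyc and 1.95% in TN (0.957, 0.848 to 1.08). Between 5 and 20%, mt-Nd4 took 9.27% in 1cyc and 10.6% in TN (0.873, 0.842 to 0.906), and mt-Nd5 1.60% and 1.96% (0.816, 0.747 to 0.890). At 20% or more, mt-Nd4 took 7.29% in 1cyc and 10.7% in TN (0.679, 0.655 to 0.703), and mt-Nd5 0.747% and 1.90% (0.393, 0.359 to 0.430). The 1cyc shares thus lay next to the TN shares in the low band and below them in both higher bands. For mt-Cytb the ratio to TN was 0.965 (0.922 to 1.01) in the low band and 1.24 in the high band, with an interval above 1.

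Other members differed in the low band. There the mt-Co1 share was 21.9% in 1cyc and 24.6% in TN, a ratio of 0.889 (0.859 to 0.920), and its interval was the only one of 10 below 1. The mt-Nd1 share was 4.82% in 1cyc and 4.31% in TN, a ratio of 1.12 (1.04 to 1.21). The composition differed by 3.28 points (2.49 to 4.07) under 5%, by 3.86 (3.31 to 4.41) between 5 and 20% and by 6.26 (5.70 to 6.83) at 20% or more. With adipocyte nuclei alone these distances were 3.55, 4.36 and 7.49 points.

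Within the 1cyc library, barcodes at 20% or more carried another mixture than barcodes under 5%. The high band took 80.3% of all mt- UMIs of the library. There mt-Nd5 took 0.747% in the high band and 1.86% in the low band (ratio 0.400, 0.360 to 0.446), mt-Nd4 7.29% and 10.4% (0.704, 0.674 to 0.735), and mt-Nd2 4.79% and 5.43% (0.882, 0.832 to 0.936). On the other side mt-Cytb took 16.2% in the high band and 13.1% in the low band (1.24, 1.19 to 1.28), mt-Co1 24.2% and 21.9% (1.11, 1.08 to 1.14), and mt-Co2 12.8% and 11.9% (1.08, 1.04 to 1.12). The intervals of mt-Nd1, mt-Nd3, mt-Co3 and mt-Atp6 held 1. The distance between the bands was 6.74 points (6.08 to 7.41). In TN it was 1.28 points (0.619 to 1.94), and no member was 1.2-fold apart between the bands.

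In TN the high band differed from the low band in 2 members by their intervals. The mt-Nd1 share was 5.00% in the high band and 4.31% in the low band (1.16, 1.08 to 1.24), and mt-Nd2 4.94% and 5.34% (0.925, 0.867 to 0.987). The mt-Nd4 ratio was 1.04 (0.992 to 1.09) and the mt-Nd5 ratio 0.975 (0.877 to 1.09). The TN high band rests on few barcodes: 5 of its 84 held 33.1% of its mt- UMIs, and without the top 5 barcodes of each band the TN distance was 2.01 points. The same step gave 6.85 points in 1cyc. In the TN high band the variance of a share between barcodes reached 2.64 times the binomial variance, against at most 1.50 times in all other groups of barcodes, so TN intervals there are too narrow.

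**Figure D3:**
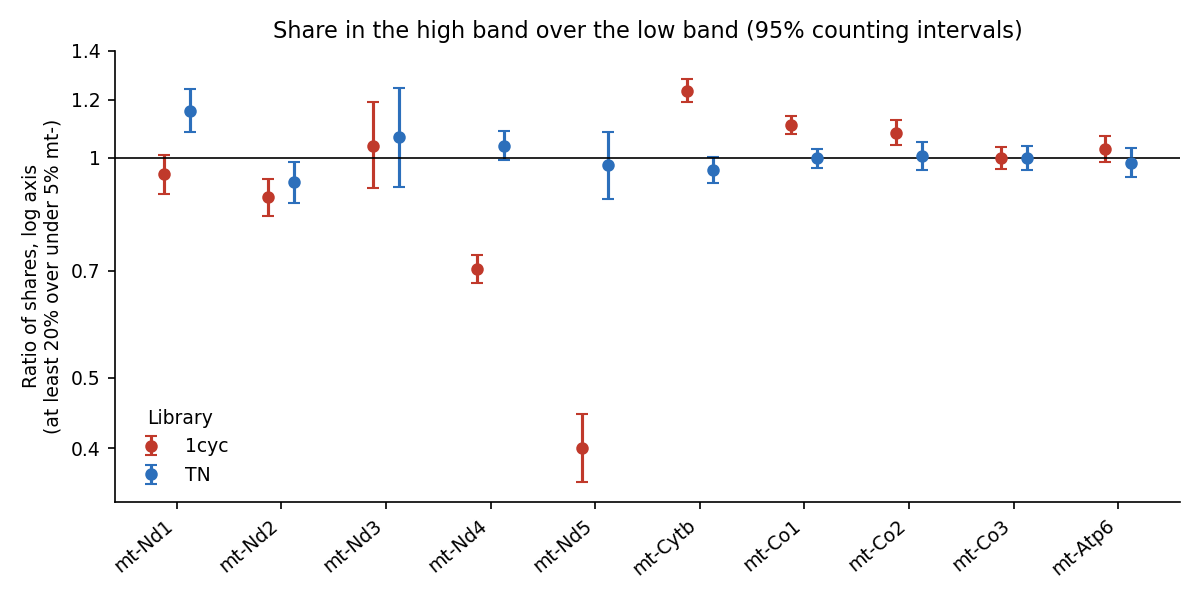
Ratio of each gene's share in barcodes with at least 20% mt- UMIs to its share in barcodes under 5% (y axis, log scale) for the 10 genes (x axis), in 1cyc (red, left) and TN (blue, right), with 95% counting intervals. In 1cyc mt-Nd5 stands at 0.400 and mt-Nd4 at 0.704, while in TN they stand at 0.975 and 1.04.

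Finer bands, set after the data were seen, showed where the 1cyc shares moved. Bands ran from 0 to 2, 2 to 5, 5 to 10, 10 to 20, 20 to 30, 30 to 40 and 40 to 60% mt- UMIs, with a last one from 60%. Over the first 7, low to high, the mt-Nd4 share in 1cyc was 9.87%, 10.6%, 9.78%, 9.06%, 7.33%, 7.25% and 7.05%. For mt-Nd5 the 1cyc shares over the same bands were 1.85%, 1.88%, 1.95%, 1.45%, 0.795%, 0.713% and 0.629%. Both were near the TN level up to 10% and then lower, with most of the drop between 10 and 30%. The mt-Cytb share in 1cyc was 13.3%, 13.02%, 13.7%, 14.2%, 16.02%, 16.3% and 16.4%. In TN the mt-Nd4 share stayed between 9.51% and 11.1% over all 8 bands, and mt-Nd5 between 1.55% and 2.14%. The 8 barcodes of 1cyc at 60% or more stood apart from the rest of their library, with 10.6% mt-Nd4 and 2.45% mt-Nd5, and 5 of them held 80.1% of the UMIs behind these values.

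**Figure D4:**
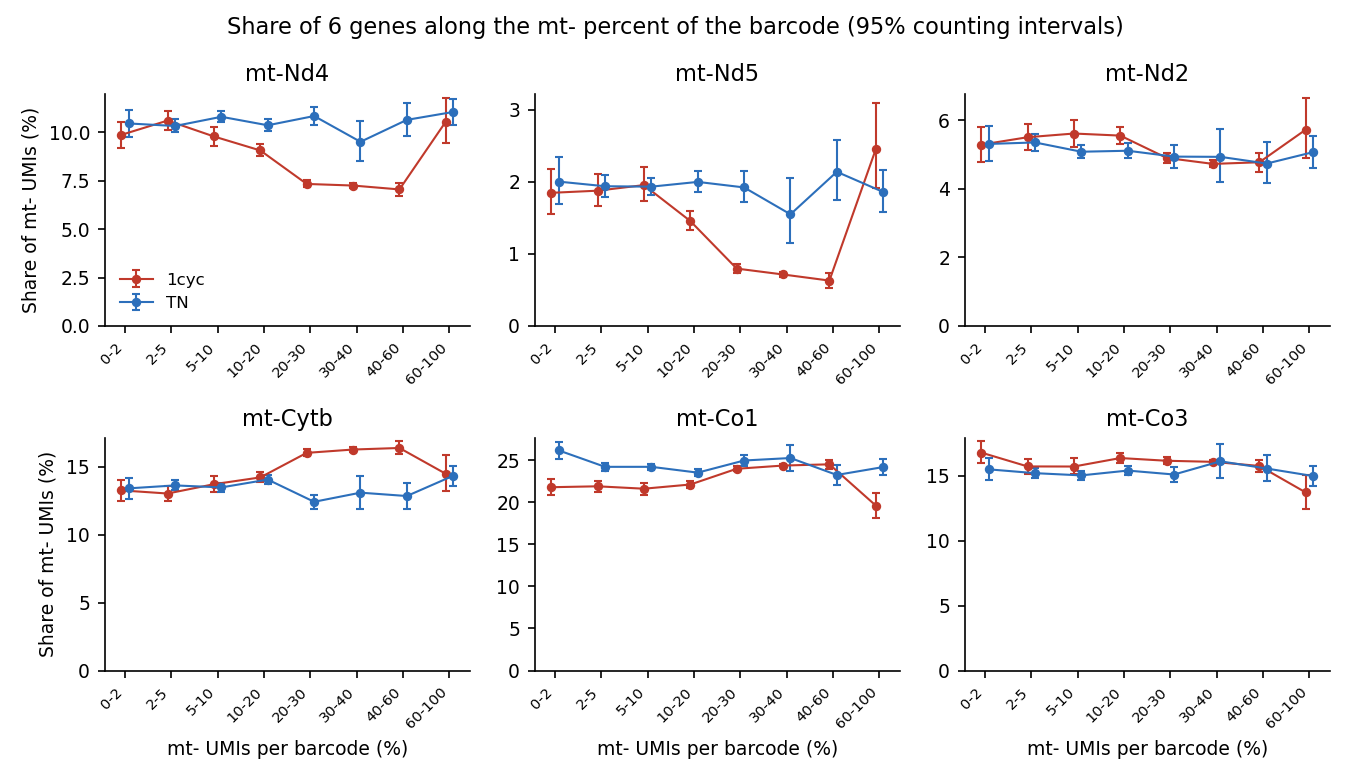
Share of mt- UMIs in percent (y axis) of 6 genes in bands of the mt- percent of the barcode (x axis), in 1cyc (red) and TN (blue), with 95% counting intervals. In 1cyc mt-Nd4 and mt-Nd5 lie lower and mt-Cytb higher between 20 and 60%, and the last 1cyc point holds 8 barcodes.

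Depth moved with the bands in 1cyc: the median barcode held 917 UMIs in the low band, 349 in the middle band and 328 in the high band. Among barcodes with 500 to 999 UMIs, the 1cyc mt-Nd4 share was 10.1% in 401 low-band barcodes, 10.1% in 158 middle-band barcodes and 7.17% in 356 high-band barcodes. The mt-Nd5 share in the same groups was 1.71%, 2.03% and 0.696%. The difference of high from low band was thus as large at matched depth, while the middle band then stood at the low-band level. In TN barcodes of that depth, mt-Nd4 took 10.5%, 10.7% and 10.3% in the low, middle and high band.

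Haemoglobin transcripts also moved with the bands in 1cyc. Their percent was counted over all genes named Hba- or Hbb-, without Alas2, which the haemoglobin gate also counts. The median barcode had 0 haemoglobin UMIs in the low band, 0.366% in the middle band and 1.62% in the high band. In TN the median was 0 in each band. With barcodes of 10% or more haemoglobin left out, 24 in 1cyc and 51 in TN, the distance between high and low band was 6.77 points in 1cyc and 1.42 in TN. The part of depth and haemoglobin in the composition was not tested further.

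The other 3 mt- genes, which together held under 2% of mt- UMIs in each library, were also lower in the 1cyc high band. There mt-Nd4l took 0.510% in the high band and 1.75% in the low band (ratio 0.291, 0.260 to 0.326). The mt-Nd6 transcript, the only coding transcript of the minus strand, took 0.0831% and 0.323% (0.257, 0.197 to 0.339), and mt-Atp8 0.0590% and 0.213% (0.277, 0.200 to 0.391). The mt-Nd6 share was highest in the middle band, at 0.617%. In TN the high to low ratios were 1.09, 0.868 and 0.829, each with an interval that held 1. The TN low-band shares were 1.02% for mt-Nd4l, 0.251% for mt-Nd6 and 0.121% for mt-Atp8. Each lay below the 1cyc low-band share, with intervals apart only for mt-Nd4l. Unlike those of mt-Nd4 and mt-Nd5, the 1cyc ratios of these genes thus started from low-band shares above TN.

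Position and sequence of the genes were set beside these values as a description. The members with lower shares in the 1cyc high band, mt-Nd2, mt-Nd4 and mt-Nd5, hold 3, 2 and 2 internal runs of at least 6 A, searched as AAAAAA on the coding strand. Those with higher shares, mt-Cytb, mt-Co1 and mt-Co2, hold 0, 1 and 0. The members with intervals that held 1 have 1 run in mt-Nd1 and 0 in mt-Nd3, mt-Co3 and mt-Atp6. The genes mt-Nd4l, mt-Nd6 and mt-Atp8, whose shares were lower, have 0. The genes mt-Nd4l, mt-Nd4, mt-Nd5 and mt-Nd6 lie next to each other from position 9877 to 14070, with mt-Cytb, of higher share, directly after them. By coding length mt-Nd5 has 1824 bases, mt-Co1 1545 and mt-Atp8 204. A part of A runs, position or length in the shares was not tested.

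Adipocyte nuclei and other barcodes differed by 0.855 points (0.538 to 1.17) in 1cyc, with ratios of the 10 shares between 0.938 and 1.06. Most of the 1772 other barcodes of 1cyc fell in the haemoglobin gate (1029) or in no gate (602), groups that carried thermogenesis transcripts too. This distance is therefore not one between cell types. In the high band of 1cyc, where 1054 barcodes passed the adipocyte rule and 1221 did not, the distance was 0.382 points (0.0224 to 0.741), and the intervals of 10 of 10 members held 1. A distance this small is not read as a difference, since it cannot fall below 0. In the low band, with 912 adipocyte nuclei and 172 other barcodes, the distance was 2.49 points (0.714 to 4.28), and mt-Nd5 took 1.78% in adipocyte nuclei and 2.33% in other barcodes (0.763, 0.598 to 0.983). The mt-Nd4 share in the high band was 7.26% in adipocyte nuclei and 7.32% in other barcodes, and mt-Nd5 0.725% and 0.770%. In 1cyc the high to low ratio of mt-Nd4 was 0.702 both in adipocyte nuclei (0.669 to 0.737) and in other barcodes (0.632 to 0.781).

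In TN adipocyte nuclei and other barcodes stood further apart, by 2.88 points (2.37 to 3.39). Of the 654 other barcodes of TN, 52 fell in the haemoglobin gate and 187 in no gate, so the other classes of the libraries were unlike. The mt-Nd1 share was 4.41% in TN adipocyte nuclei and 5.35% in other TN barcodes (ratio 0.824, 0.787 to 0.863), which made it the member furthest from 1. For mt-Co1 the shares were 24.9% and 23.0% (1.08, 1.06 to 1.10), for mt-Atp6 10.3% and 11.0% (0.931, 0.902 to 0.960), and for mt-Nd3 0.902% and 1.02% (0.883, 0.795 to 0.981). The mt-Nd2 and mt-Nd5 intervals held 1. In the low, middle and high band of TN the mt-Nd1 ratio was 0.868, 0.810 and 0.871, so it lay below 1 in each.

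Barcodes that failed the adipocyte rule were gated by fixed marker lists, with at least 4 UMIs of 1 list and more than of any other. The gates were small, with 34 endothelial, 67 fibroblast or progenitor, 20 macrophage, 10 skeletal muscle and 10 mural barcodes in 1cyc, and 125, 183, 33, 41 and 33 in TN. Each gate held all markers of its own list except mural barcodes in 1cyc, where Acta2 was at 0. The lists define the gates, so this is no check of their identity. In 1cyc these 5 gates lay further from adipocyte nuclei than the 0.855 points of all other barcodes summed, at 5.31 points (3.2 to 7.43) for endothelial, 6.70 (4.78 to 8.57) for fibroblast or progenitor, 7.72 (5.02 to 10.4) for macrophage, 8.67 (4.14 to 13.4) for mural and 13.6 (9.53 to 17.7) for skeletal muscle barcodes. These values rest on 411 (mural) to 2543 (fibroblast or progenitor) mt- UMIs in 1cyc, and the distance between the high and low bands of 1cyc was 6.74 points. In TN the distances lay between 3.74 points (endothelial) and 7.002 points (mural). The high band of 1cyc held 1 endothelial, 2 macrophage and 0 barcodes of the other 3 gates, against 1054 of the 2549 adipocyte nuclei, so the part of the band in these distances was not tested. Macrophage-gate barcodes had the highest mt-Nd1 share of the 1cyc gates, 6.44% (5.18 to 7.91), against 4.63% in 1cyc adipocyte nuclei, though its interval overlapped that of the mural gate (3.97 to 8.85). In TN macrophage-gate barcodes had 6.88% (6.19 to 7.63) and mural ones 6.74% (5.75 to 7.83), against 4.41% in TN adipocyte nuclei. Conversely mt-Cytb took 11.2% in 1cyc macrophage-gate barcodes and 15.6% in 1cyc adipocyte nuclei (ratio 0.719, 0.607 to 0.845), and 10.2% and 13.7% in TN (0.742, 0.677 to 0.811). The 5 barcodes richest in mt- UMIs held 54.3% of the macrophage-gate mt- UMIs in 1cyc and 38.9% in TN. Fibroblast or progenitor barcodes, 51 of 67 in the low band of 1cyc, had 10.1% mt-Nd4 in 1cyc and 10.1% in TN, and 2.16% and 2.05% mt-Nd5.

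**Figure D5:**
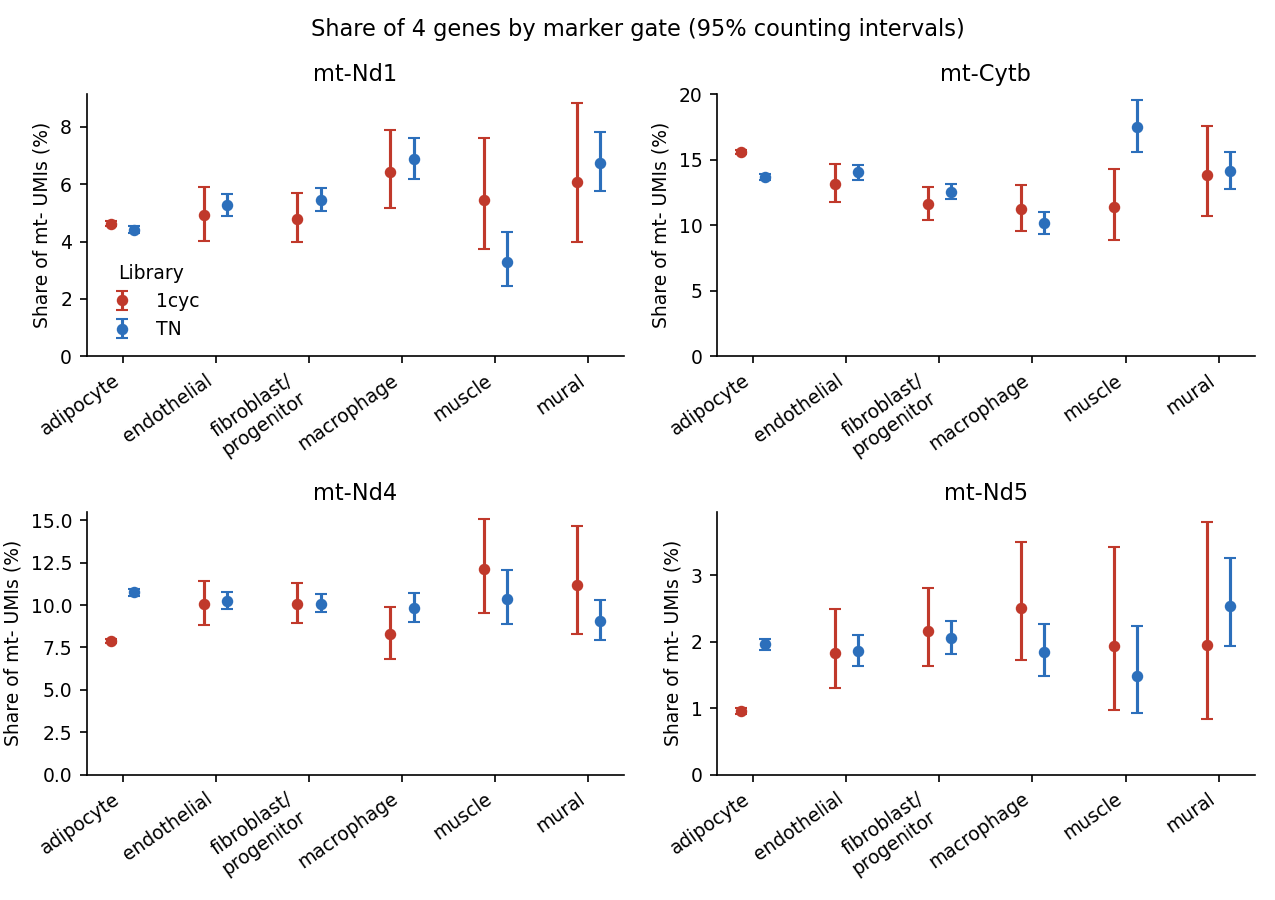
Share of mt- UMIs in percent (y axis) of mt-Nd1, mt-Cytb, mt-Nd4 and mt-Nd5 by class (x axis: adipocyte nuclei and 5 marker gates) in 1cyc (red, left) and TN (blue, right), with 95% counting intervals. Macrophage-gate barcodes had more mt-Nd1 (6.44% in 1cyc, 6.88% in TN) and less mt-Cytb (11.2% and 10.2%) than adipocyte nuclei (4.63% and 4.41%, 15.6% and 13.7%).

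The haemoglobin list passed its gate in 1029 barcodes of 1cyc and 52 of TN. In TN these barcodes had 90.2% haemoglobin UMIs. In 1cyc 900 of the 1029 lay in the high band with a median of 1.87%, so the gate did not mark erythroid identity there. Their mt- composition in 1cyc, with 7.24% mt-Nd4 and 0.729% mt-Nd5, was close to that of all high-band barcodes, with 7.29% and 0.747%.

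By level, as CPM of all UMIs, 8 of 10 members were at least 2-fold higher in 1cyc over all barcodes. Of all 6237 genes with at least 100 UMIs, 1.83% were. None of the 10 was at least 2-fold lower, against 5.71% of genes. The highest ratios were those of mt-Cytb, with 22303 CPM in 1cyc and 7774 CPM in TN (2.87, 2.82 to 2.91), and mt-Nd3, with 1553 and 543 CPM (2.86, 2.70 to 3.04). The 2 exceptions were mt-Nd4, with 11008 CPM in 1cyc and 6069 CPM in TN (1.81), and mt-Nd5, with 1324 and 1116 CPM (1.19, 1.13 to 1.25). In adipocyte nuclei 7 of 10 members passed, against 1.17% of genes, and 0 were lower, against 3.05%, with mt-Co1 just short at 26450 CPM in 1cyc and 13409 CPM in TN (1.97). In other barcodes 9 of 10 passed, against 11.1% of genes, and 0 were lower, against 10.4%. Bands are cut on this same quantity, so counts within them only describe it. Under 5%, 0 of 10 were at least 2-fold higher, against 2.95% of genes, and 0 lower, against 2.86%. Between 5 and 20%, 0 were higher, against 1.26%, and 0 lower, against 3.67%. At 20% or more, 0 were higher, against 27.5%, and 1 was lower, against 6.61%: mt-Nd5, with 2406 CPM in 1cyc and 6443 CPM in TN. With at least 500 UMIs per barcode in both libraries the count was 0 of 10, and with at least 200 genes per barcode it was 2.

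Thinned to 250 UMIs, which left out no barcode, the median barcode had UMIs of 8 of the 10 genes in 1cyc and of 6 in TN. Before thinning the medians were 9 and 8. At the thinned depth mt-Co1 was found in 91.3% of barcodes in 1cyc and 88.3% in TN, mt-Nd3 in 38.4% and 12.9%, and mt-Nd5 in 33.5% and 25.05%. In the high band mt-Nd5 was found in 43.4% of 1cyc barcodes and 84.5% of TN barcodes, while mt-Nd1 was found in 97.0% and 95.2%. Red blood cells lose their mitochondria as they mature, so barcodes with at least 10% haemoglobin UMIs gave a low reference. These were 24 barcodes in 1cyc (median 1795 UMIs) and 51 in TN (median 5110 UMIs). In them mt-Co1 was found in 58.3% in 1cyc and 56.9% in TN, mt-Nd3 in 8.33% and 5.88%, and mt-Nd5 in 4.17% and 13.7%. Under 5% mt- UMIs, mt-Nd3 was found in 5.81% of barcodes in 1cyc and 5.45% in TN, at or below that level. In 1cyc mt-Nd1 and mt-Nd2 were also found less often in the low band (24.4% and 27.0%) than in haemoglobin-rich barcodes (29.2% each). In TN both were found more often in the low band (23.6% and 30.9%) than in haemoglobin-rich barcodes (13.7% and 17.6%). For mt-Nd5 the low-band shares were 10.7% in 1cyc and 13.7% in TN, both within the intervals of the haemoglobin-rich barcodes (0.105 to 21.1% in 1cyc on 1 of 24 barcodes, and 5.70 to 26.3% in TN). Haemoglobin took 92.7% of the UMIs of the haemoglobin-rich barcodes in 1cyc and 92.3% in TN, so thinning left few other UMIs in them. They make a weak reference, and no share is read as background from them.

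Nuclear-encoded genes were then compared between high and low band within a library, as CPM of nuclear-encoded UMIs. In 1cyc 40 of 3186 genes (1.26%) were at least 2-fold higher in the high band and 16 (0.502%) at least 2-fold lower. In TN 323 of 2896 (11.2%) were higher and 408 (14.1%) lower, on 64436 nuclear-encoded UMIs in the high band. The scaling mattered: TMM scaling lowered all log2 ratios by 0.14 in 1cyc and by 0.63 in TN, and gave 31 higher and 30 lower genes in 1cyc and 133 and 993 in TN.

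Nuclear-encoded complex IV genes, the partners of mt-Co1, mt-Co2 and mt-Co3, were higher in the high band with all scalings. In 1cyc 6 of 6 measured were higher, 4 of them at least 2-fold, with a median log2 ratio of 1.18 against -0.04 over all genes. In TN 3 of 3 were higher, with a median of 1.39 against -0.02. Examples in 1cyc were Cox5a, with 226 CPM in the high band and 106 CPM in the low band (ratio 2.14, 1.66 to 2.76), and Cox8a, with 116 and 39.0 CPM (2.99, 2.02 to 4.45). Complex III had 3 of 4 higher in 1cyc (median 0.58), led by Uqcr11 at 5.85 (3.74 to 9.41), and 1 of 2 in TN. Complex V had 4 of 5 higher in 1cyc (median 0.42) and 3 of 4 in TN, with Atp5c1 lower at 0.636 (0.446 to 0.893) in 1cyc. Complex I had 7 of 7 higher in 1cyc with a median of 0.17, but 4 of 7 with TMM scaling, and 3 of 5 in TN, but 2 of 5 with TMM scaling.

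Most genes of mitochondrial gene expression had few UMIs, so these lists are given as sums. The list of mtDNA replication and transcription summed to 326 CPM in the high band and 262 CPM in the low band of 1cyc (ratio 1.25, 1.03 to 1.50), and to 186 and 196 CPM in TN (0.949, 0.485 to 1.68). The list of mitochondrial RNA processing and stability summed to 390 and 426 CPM in 1cyc (0.915, 0.779 to 1.07) and to 233 and 328 CPM in TN (0.710, 0.395 to 1.18). The product of Lrpprc stabilises mitochondrial mRNAs, and its transcript had 125 CPM in the high band and 137 CPM in the low band of 1cyc (0.913, 0.683 to 1.21). In TN it had 0 UMIs in the high band and 167 in the low band, with an interval of the ratio from 0 to 0.572. The ratio was 0.460 with the 0 set to the floor of 3 counts over the band.

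Other lists followed the bands in their own ways. Cytosolic ribosomal protein genes summed to 2303 CPM in the high band and 1097 CPM in the low band of 1cyc (2.10, 1.94 to 2.27), and to 11702 and 3006 CPM in TN (3.89), with 20 of 20 measured members higher in TN under both scalings. Abundant cytoplasmic adipocyte mRNAs summed to 8339 and 6169 CPM in 1cyc (1.35), with 8 of 11 members higher, or 7 with TMM scaling, and to 11702 and 5351 CPM in TN (2.19, 2.03 to 2.36), with 5 of 10 members higher, or 4 with TMM scaling. Nuclear-retained RNAs, mostly Malat1, summed to 143539 and 119591 CPM in 1cyc (interval of the ratio 1.19 to 1.21) but to 89143 and 116840 CPM in TN (0.763, 0.743 to 0.783). Single members were higher in 3 of 5 in 1cyc, or 2 of 5 with TMM scaling, and in 1 of 5 in TN, or 0 with TMM scaling. Thermogenesis genes summed to 6775 and 7336 CPM in 1cyc (0.924, 0.889 to 0.959) and to 1909 and 4695 CPM in TN (0.407, 0.337 to 0.486), with 6 of 9 measured members higher in 1cyc, or 2 of 9 with TMM scaling, and 0 of 9 in TN. In 1cyc the 4 adipocyte markers summed to 14138 CPM in the high band and 13434 CPM in the low band, and in TN to 5230 and 9342 CPM. Endothelial markers summed to 355 and 249 CPM in 1cyc, against 3942 and 598 CPM in TN, where 7 of 7 measured were at least 2-fold higher. Macrophage markers summed to 233 and 90.9 CPM in 1cyc and to 1040 and 225 CPM in TN, mural markers to 176 and 147 CPM in 1cyc and to 1319 and 245 CPM in TN. Fibroblast or progenitor markers summed to 552 and 709 CPM in 1cyc and to 993 and 988 CPM in TN. Skeletal muscle markers summed to 402 and 945 CPM in 1cyc and to 31.0 and 1432 CPM in TN, and the haemoglobin list to 25117 and 53375 CPM in 1cyc and to 16714 and 155699 CPM in TN. In 1cyc the haemoglobin sum was thus lower in the high band, while the haemoglobin percent of the median barcode was higher there. The low band held 15 haemoglobin-gate barcodes in 1cyc and 42 in TN, each group with a median of 94.7% haemoglobin. Their part in the sums was not tested. With TMM scaling the summed ratios of adipocyte markers in 1cyc and of fibroblast or progenitor markers in TN change side of 1. The TN bands thus differed in cell makeup as well as in mt- percent, and the part of this in the TN values was not tested.

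Single nuclear-encoded genes were ranked by the interval bound nearest to 1 in 1cyc, with the same side of 1 in TN. The 5 highest in the high band were Myo3a, Fth1, Actb, Cfd and Uqcr11. Myo3a, an unconventional myosin, had 1850 CPM in the high band and 75.4 CPM in the low band of 1cyc (24.6, 19.7 to 30.9), and 543 and 47.8 CPM in TN (11.4, 7.40 to 17.1). Fth1, the ferritin heavy chain, had a ratio of 7.62 in 1cyc and 5.12 in TN, Actb, a cytoplasmic actin, 6.14 and 2.80, and Cfd, the secreted protease adipsin, 5.38 and 4.00. Uqcr11, a small subunit of complex III, had 5.85 in 1cyc and 7.07 in TN, where the high band held 8 of its UMIs. The 5 lowest were Ttn, the giant muscle protein titin, Prpf4b, a kinase of the splicing machinery, Ncapd3, a condensin subunit, Scn7a, a sodium channel, and Alas2, the erythroid enzyme of haem synthesis, with 1cyc ratios between 0.379 and 0.504. Their TN ratios lay between 0.0133 and 0.646, and 4 of the 5 rested on 1 or 2 UMIs in the TN high band. The TN intervals of Prpf4b, Ncapd3 and Scn7a held 1.

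Some reads can be shared between the mitochondrial genome and copies of it in nuclear chromosomes. Copies on chromosome 1 match mt-Co2, mt-Atp6, mt-Co3 and mt-Nd4l at 100% identity over 99.0 to 99.9% of their length, mt-Nd3 at 99.7%, and mt-Nd4 at 100% over 63.6% of its length. None of these copies is in the gene list of the files, and the sources used here do not state how reads that fit several places were treated. The counts of these genes are therefore uncertain to that extent. Copies of mt-Nd2, mt-Co1 and mt-Co2, with 95.9 to 97.6% identity, lie on the minus strand of chromosome 2 (mm10) inside Myo3a, which is on the plus strand. Myo3a UMIs per 1000 mt- UMIs were 3.85 in the low band, 8.85 in the middle band and 3.89 in the high band of 1cyc, and 1.98, 1.50 and 1.06 in TN. Stxbp4, which holds a copy of part of mt-Co1 at 90.7% identity, had 62.5 CPM in the high band and 32.0 CPM in the low band of 1cyc, on 37 UMIs each, and 31.0 and 41.8 CPM in TN, on 2 and 69 UMIs.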

How the data were processed

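Raw UMI counts per gene and barcode were deposited for both libraries with no normalization. The mm10 genome and Cell Ranger 3 are named per the submitters' processing notes, and Cell Ranger 3.1.0 wrote the matrices, per the file headers. Barcodes were already filtered, per the series' design text. The sources used here do not name the annotation or say how intronic reads were handled. No barcode was removed. Shares were computed over summed UMIs, with exact Clopper-Pearson intervals for shares, exact Poisson intervals for CPM, exact conditional binomial intervals for ratios and Wilson-based intervals for distances, all at 95%. PCR copies are collapsed by UMIs, and the intervals cover counting error only. Genes compared by CPM had at least 100 UMIs in the groups compared, and a count of 0 was set to a floor of 3 counts over the group. Barcode spread used barcodes with at least 20 mt- UMIs. Named nuclear-encoded genes were the 5 highest and 5 lowest by interval bound, without ribosomal protein, haemoglobin and unnamed gene models. The ribosomal protein list leaves out kinases and binding proteins named after ribosomal proteins. Gene positions and sequences came from GENCODE M21, which held 30934 of 31053 identifiers (99.6%), and copies were found with blastn 2.17.0. Scaling factors came from edgeR 4.0.16, and doublets from Scrublet in scanpy 1.11.5, which called 7 barcodes in 1cyc (0.162%) and 12 in TN (0.470%). Under 0.5% of barcodes were called, so doublets remain in the data. Interval and fold scripts were tested on simulated data. Members and lists were chosen with earlier results of these data known.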

Additional observations from a re-analysis of the deposited data

Results flagged for a closer look

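In adipocyte nuclei the mt-Nd4 share moved in opposite directions along the mt- percent in the libraries. Its share in the high band over that in the low band was 0.702 (0.669 to 0.737) in 1cyc and 1.07 (1.01 to 1.13) in TN. The 1cyc adipocyte nuclei had 7.26% in the high band and 10.3% in the low band, and the TN ones 11.2% and 10.4%. The difference between the libraries was not tested, since each condition is 1 library. The TN high band holds 33 adipocyte nuclei, 5 of which carry 60.6% of its mt- UMIs.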

How the results depend on the processing

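No paired analysis was possible because each condition is 1 pooled library. The band, class and library comparisons kept their direction in all alternatives unless named here. With at least 500 UMIs per barcode the mt- percent ratio was 1.28, the library distance 4.72 points, the adipocyte to other distance in 1cyc 2.19, members 2-fold higher 0, and nuclear genes 2-fold higher and lower in the 1cyc high band 16 and 60. With at least 200 genes per barcode these were 1.77, 4.76, 0.690, 2, 22 and 31. With each barcode weighted equally the mt- percent ratio was 3.09, the library distance 4.77, the class distance 2.11 in 1cyc and 2.15 in TN, 1 member was at least 1.2-fold higher, and the mt-Nd1 ratio was 1.07. In barcodes under 5% only, an alternative added after the data were seen, the library distance was 3.28, 0 members were 1.2-fold lower, and the ratios of mt-Nd1, mt-Nd2, mt-Nd4 and mt-Cytb were 1.12, 1.02, 1.00 and 0.965. Without haemoglobin-rich barcodes the mt- percent ratio was 2.33. An adipocyte rule of 8 UMIs gave a class distance of 2.04 in 1cyc. With the 10 listed genes as denominator the band distance in 1cyc was 5.79, and without the top 5 barcodes per band, also added later, it was 2.01 in TN. Nuclear genes in the high band, higher and lower, numbered 31 and 30 in 1cyc and 133 and 993 in TN with TMM scaling. Size factors gave 27 lower in 1cyc, and 136 higher and 962 lower in TN. A minimum of 20 UMIs gave 503 and 204 in 1cyc and 2259 and 680 in TN, where many genes at 0 were set to the floor. Bands of under 10% and at least 30% gave 40 lower in 1cyc and 1335 higher in TN. The same floor applied to genes at 0 in this smaller TN high band, so the TN count can include genes without a measured increase. Removing doublets changed no count by over 1.5 times. Depth limits the TN high band, the gates and single nuclear genes.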
